A study of Mus musculus with 6 samples.

Results

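The respiratory chain passes electrons from NADH and succinate to oxygen through complexes I to IV of the inner mitochondrial membrane, and complex V, the ATP synthase, uses the resulting proton gradient to make ATP. Most of the subunits are encoded in the nucleus, translated in the cytosol and imported, and the remainder are made from mitochondrial DNA. The early mouse embryo relies heavily on glycolysis, and oxidative metabolism is known to gain weight during organogenesis, first in the heart. The nuclear genes of the chain were taken by symbol from the gene table, as those beginning with Nduf followed by a, b, c, s or v, with Uqcr, with Cox4 to Cox8 or with Atp5, together with Sdha, Sdhb, Sdhc, Sdhd, Cyc1 and Cycs. This gave 93 of 20280 genes. They comprise 36 subunit genes of complex I, 4 of complex II, 9 of complex III including Cyc1, 18 of complex IV, 15 of complex V, the gene of cytochrome c (Cycs), 7 complex I assembly factors (Ndufaf) and 3 genes that fit by symbol but are not counted here as subunits (Atp5s, Atp5sl and Ndufa4l2).

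RNA was sequenced from embryos of the FVB/N strain at embryonic day 8.5 (E8.5), with 3 libraries of Tip55+/+ and 3 of Tip55Δ/Δ embryos, both from crosses of heterozygous parents. The Tip55Δ allele lacks introns 11 to 13 of Kat5, which fuses exons 11 to 14 and removes the region that codes for the end of the TIP55 isoform, in every cell of the embryo. The sources used here do not give the number of embryos behind a library. The gene table holds ratios of genotype means, from which a mean normalized count per gene and genotype was solved for. It gives no value for a single library, so the spread between embryos is unknown, no difference below has a replicate check, and no test between genotypes was possible. Intervals beside ratios are exact (Clopper-Pearson) at 95% and cover counting error only. They take 3 times the recovered mean, rounded, as the count of a genotype, so normalized counts are treated as if they were read counts. A gene is described as lower or higher when its Tip55Δ/Δ mean differed by more than 1.2-fold from its Tip55+/+ mean and at least 1 of the means reached 10 normalized counts. Summed over genes, these means came to 49138051 normalized counts a library for Tip55+/+ and 47211544 for Tip55Δ/Δ. Kat5, the edited gene, had 2218 normalized counts in Tip55+/+ and 1615 in Tip55Δ/Δ embryos (ratio 0.728, interval 0.702 to 0.756), a value that sums its isoforms and does not check the loss of TIP55.

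Blood, extraembryonic and maternal markers differed far more than the respiratory genes. All 9 primitive erythroid genes that could be compared (globins, Gata1, Klf1 and others) were lower in Tip55Δ/Δ embryos, their summed counts at a ratio of 0.0691, and none was at 0 in either genotype. The direction of the ratios was read in part from erythroid genes, so their direction is not an independent result. All 9 genes of visceral endoderm and yolk sac were lower (summed ratio 0.613), while 4 of 8 cardiac muscle genes were higher and 1 was lower (summed ratio 1.26). Of 3 maternal decidua genes compared, Prl8a2 was lower (503 and 27.6 normalized counts, ratio 0.0548, interval 0.0435 to 0.0686), while Gzmf (ratio 15.1, interval 6.15 to 47.5) and Gzmg (ratio 15.2, interval 5.56 to 56.8) were higher on few counts. In bulk RNA, fewer cells of a type and less RNA per cell cannot be told apart. The part of these tissues in the respiratory gene values was not tested.

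The respiratory chain and ATP synthase genes were close to the same level in both genotypes. Of the 93 genes, 91 could be compared, and 66 of them lay within 1.2-fold. There were 17 lower genes (18.7% of the 91), against 19.1% lower among all 15924 genes compared, and 8 higher genes (8.79%), against 19.9% higher among all genes. The share that was lower was therefore near the background. The split of 17 lower against 8 higher became 13 against 11 when both genotypes were scaled to equal totals, 14 against 10 with the GC trend removed and 13 against 10 with the trend on transcript length removed. The median log2 ratio of the 91 genes was -0.08, beside -0.00 for all genes. A ratio below 1 was found for 56 of them (61.5%), against 50.3% of all genes compared. Most of these genes are abundant, and abundant genes in general were less often far from 1. Of the 74 subunit genes whose mean reached 1000 normalized counts, 16 were lower (21.6%) and 2 higher (2.70%), with a median log2 ratio of -0.10. Of all 7789 genes at that level, 16.3% were lower and 7.24% higher, with a median of -0.04. Ratios below 1 were found for 68.9% of the 74 and 57.7% of the 7789. Together the 93 genes held 0.878% of the normalized counts in Tip55+/+ and 0.857% in Tip55Δ/Δ embryos. Counting error was small at these levels, and the intervals of 78 of the 91 ratios excluded 1.

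**Figure D1:**
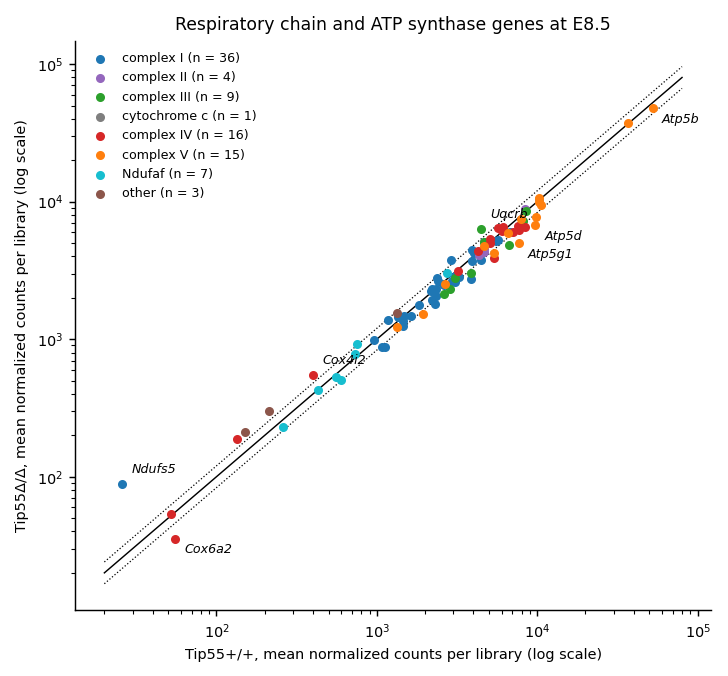
Mean normalized counts per library of the 91 compared genes in Tip55+/+ (horizontal, log scale) and Tip55Δ/Δ embryos (vertical, log scale), 1 point per gene, coloured by complex. The solid line marks equal means and the dotted lines 1.2-fold, and most points lie between the dotted lines, with Ndufs5 farthest above them.

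In complex I, the NADH dehydrogenase, 30 of 36 subunit genes lay within 1.2-fold. Of the others 4 were lower (11.1%, against 19.1% of all genes compared) and 2 higher (5.56%, against 19.9%). Among all genes with a mean of at least 1000, 16.3% were lower and 7.24% higher. The median log2 ratio was -0.08 over the 36. The 7 core subunits in the table carry the flavin and the iron-sulfur clusters that lead electrons from NADH to ubiquinone. Of these, 6 (85.7%) had ratios below 1, against 50.3% of all genes compared and 57.7% of those with a mean of at least 1000. Ndufs7, which holds the last cluster before ubiquinone, had 2308 normalized counts in Tip55+/+ and 1789 in Tip55Δ/Δ embryos (ratio 0.775, interval 0.748 to 0.803) and was the only core gene past 1.2-fold. Ndufv1, the flavin subunit, had means of 3923 and 3732 (ratio 0.951). The single core gene above 1 was Ndufv2, with means of 4680 and 5069 (ratio 1.08).

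Among the 29 accessory subunits of complex I, 3 genes were lower. Ndufab1, the mitochondrial acyl carrier protein, which also serves fatty acid and lipoic acid synthesis, was the lowest at 3857 normalized counts in Tip55+/+ and 2732 in Tip55Δ/Δ embryos (ratio 0.708, interval 0.688 to 0.729). Ndufc1 went from 1132 to 873 (ratio 0.771, interval 0.733 to 0.812) and Ndufb2 from 1083 to 877 (ratio 0.810, interval 0.769 to 0.853). Ndufc1 and Ndufb2 code for small proteins of the membrane arm. In the other direction, Ndufa12, an accessory protein of the arm that reaches into the matrix, went from 2882 to 3754 (ratio 1.30, interval 1.27 to 1.34). Its assembly-factor paralogue Ndufaf2, which holds the place of Ndufa12 until late in assembly, went from 752 to 921 (ratio 1.22, interval 1.16 to 1.29). The remaining accessory genes, apart from Ndufs5, ranged in log2 ratio from -0.24 for Ndufa13 and Ndufb11 to 0.23 for Ndufs6. Ndufb8 had the highest level per kb of transcript in complex I, at 8327 normalized counts per kb in Tip55+/+ and 7735 in Tip55Δ/Δ embryos. The counts of Ndufab1, Ndufb2, Ndufa12 and Ndufc1 may include reads of other genes. Other annotated genes hold 31.2% of the 50-base stretches of the Ndufab1 transcript, 33.5% for Ndufb2, 26.2% for Ndufa12 and 8.6% for Ndufc1.

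Ndufs5 had the largest ratio of all 91 genes, on very few counts. Its means were 25.9 normalized counts in Tip55+/+ and 89.0 in Tip55Δ/Δ embryos (ratio 3.44, interval 2.65 to 4.46), while no other structural subunit of complex I had a mean below 873. The coding sequence of Ndufs5 on chromosome 4 has a near copy on chromosome 16, BC002163, annotated as a processed pseudogene, which has its own entry in the gene table. Over 318 aligned bases the pair is 99.4% identical and differs at 2 bases. Both of these fall in the first 150 bases of the coding sequence, shown here from GENCODE transcripts on GRCm38 with the differing bases in capitals (Ndufs5 at chr4:123715930-123716079 on the minus strand, the copy at chr16:42955631-42955780 on the plus strand).
Ndufs5: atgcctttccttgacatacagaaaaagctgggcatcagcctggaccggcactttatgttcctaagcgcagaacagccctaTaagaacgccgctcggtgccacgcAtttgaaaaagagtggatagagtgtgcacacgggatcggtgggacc
BC002163: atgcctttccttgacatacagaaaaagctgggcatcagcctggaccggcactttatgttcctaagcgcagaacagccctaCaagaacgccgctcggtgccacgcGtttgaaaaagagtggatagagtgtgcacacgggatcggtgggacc
BC002163 held most of the counts of the pair, with means of 1850 in Tip55+/+ and 1593 in Tip55Δ/Δ embryos (ratio 0.861, interval 0.828 to 0.895). Summed, Ndufs5 and BC002163 had 1876 and 1682 normalized counts, a ratio of 0.897 (interval 0.863 to 0.932). The sum lies below 1 where Ndufs5 alone lies far above it. RSEM, which the authors used, divides reads that match several transcripts between them by an estimate, and the Ndufs5 ratio is uncertain for a pair this alike.

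The 7 Ndufaf genes code for proteins that build complex I but are not part of the finished enzyme, and their means ranged from 230 to 3023 normalized counts. Apart from Ndufaf2 they lay within 1.2-fold, and their median log2 ratio was -0.01. Ndufaf1, which joins an early membrane intermediate, was the lowest, at 601 and 506 normalized counts (ratio 0.842, interval 0.786 to 0.902). Ndufaf4 was the most abundant, with means of 2722 and 3023 (ratio 1.11). Of 7 other complex I assembly genes compared, Ecsit was lower (1349 and 1108, ratio 0.821) and Nubpl, which delivers iron-sulfur clusters, was higher (555 and 720, ratio 1.30).

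Complex II, succinate dehydrogenase, is shared between the respiratory chain and the tricarboxylic acid cycle, and all 4 of its genes lay within 1.2-fold. Sdha, the flavin subunit, had means of 8419 in Tip55+/+ and 8855 in Tip55Δ/Δ embryos (ratio 1.05, interval 1.03 to 1.07). Sdhb, the iron-sulfur subunit, had 4659 and 4520 (ratio 0.970, interval 0.947 to 0.993). The membrane anchors were Sdhc, with 4657 and 4301 (ratio 0.924, interval 0.902 to 0.946), and Sdhd, with 4365 and 4107 (ratio 0.941, interval 0.918 to 0.964). The catalytic pair stood slightly nearer to or above 1 than the anchors, and the log2 ratios of the 4 genes spanned only -0.11 to 0.07.

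Complex III, the cytochrome bc1 complex, passes electrons from ubiquinol to cytochrome c. Of its 9 genes 4 were lower (44.4%, against 19.1% of all genes compared) and 1 was higher (11.1%, against 19.9%). Among all genes with a mean of at least 1000, 16.3% were lower and 7.24% higher. The median log2 ratio of the 9 genes was -0.18. With the trend on GC content described further on removed, 2 of the 9 were lower, since Cyc1 and Uqcr10 no longer passed. Cyc1 and Uqcrfs1, the cytochrome c1 and the Rieske iron-sulfur protein, are the nuclear-encoded subunits that carry electrons. Cyc1 (chr15:76343523-76346260 on GRCm38) had 6709 normalized counts in Tip55+/+ and 4811 in Tip55Δ/Δ embryos (ratio 0.717, interval 0.702 to 0.733). Uqcrfs1 went from 3844 to 3009 (ratio 0.783, interval 0.761 to 0.805). The log2 ratio of Cyc1 was -0.48, or -0.19 with the GC trend removed, and that of Uqcrfs1 was -0.35 or -0.36. The core proteins, which come from peptidase ancestors and carry no electrons, stayed within 1.2-fold, with Uqcrc1 at 8173 and 7232 (ratio 0.885) and Uqcrc2 at 8453 and 8563 (ratio 1.01). The small subunits were divided. Uqcr10 (ratio 0.806, interval 0.780 to 0.834) and Uqcrq (ratio 0.810, interval 0.785 to 0.836) were lower, Uqcr11 and Uqcrh lay within 1.2-fold, and Uqcrb, at the ubiquinone-reducing site, went from 4485 to 6380 (ratio 1.42, interval 1.39 to 1.45). Of the 50-base stretches of the Uqcrb transcript, 43.4% also occur in other annotated genes, most in Gm16089 and Gm2962, so its counts may hold reads of copies. Cycs, the mobile carrier that complex III reduces, had the same level in both genotypes to within a few percent, at 10293 and 10545 normalized counts (ratio 1.02, interval 1.01 to 1.04). Other annotated genes, mostly Gm10053, hold 28.5% of the 50-base stretches of the Cycs transcript, so its counts may include their reads.

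**Figure D2:**
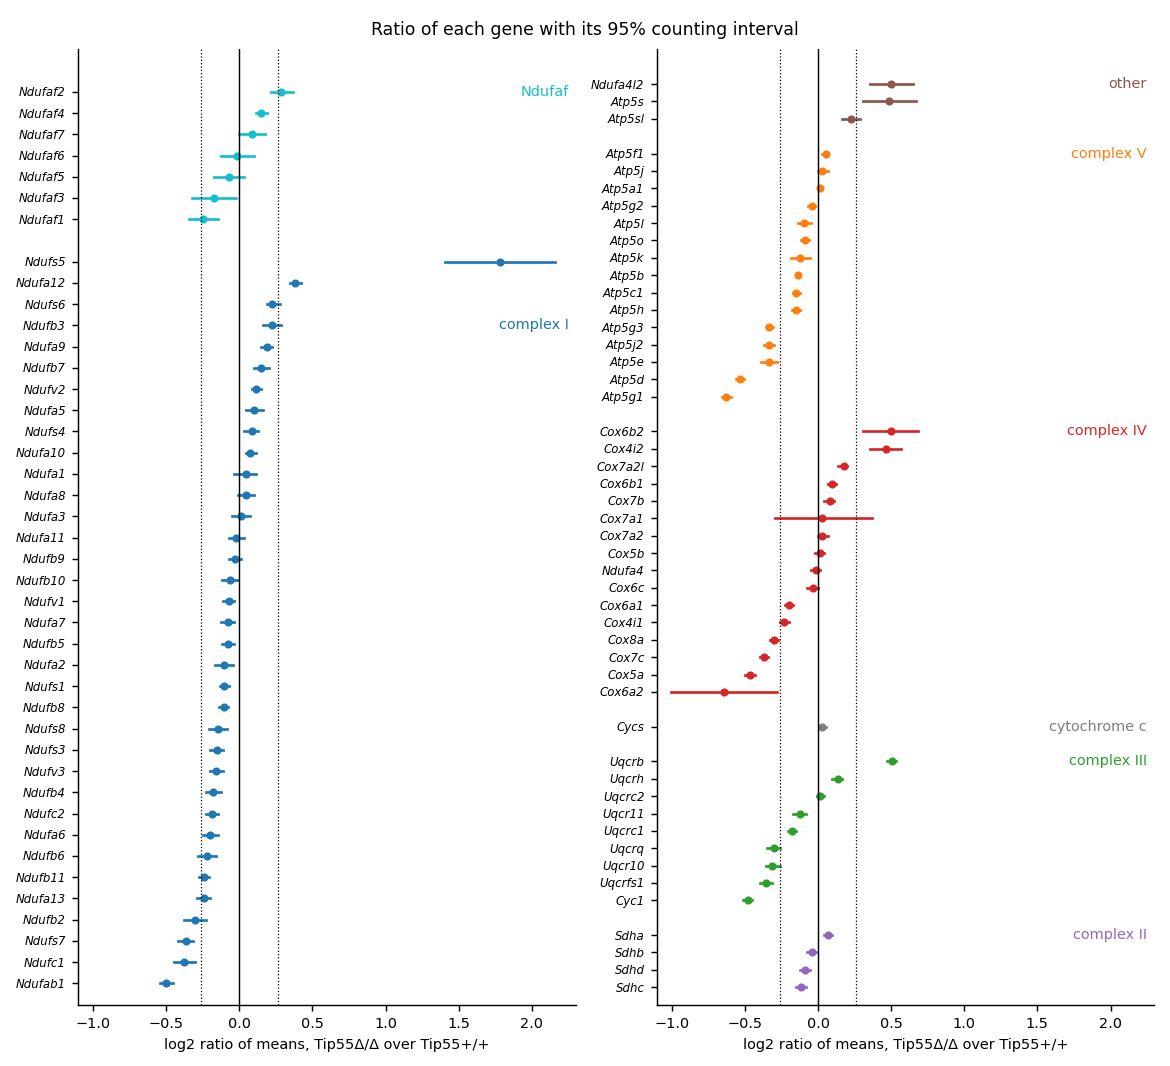
Log2 ratio of the Tip55Δ/Δ over the Tip55+/+ mean (horizontal) for the compared genes other than 1 that is not reported here, ordered within each complex, with bars for the 95% counting interval, the solid line at equal means and dotted lines at 1.2-fold. Complex II lies between the dotted lines, complex V has no gene beyond the right one, and Ndufs5 at 1.78 stands apart.

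Complex IV, cytochrome c oxidase, had a median log2 ratio of 0.00 over the 16 genes compared. It had 4 lower genes (25%, against 19.1% of all genes compared) and 2 higher ones (12.5%, against 19.9%). Its nuclear subunits include forms used in most cells and forms of restricted tissues. Of the 11 genes of the first kind, 3 were lower and none was higher. Cox5a, a matrix-facing subunit bound beside Cox4, had 5370 normalized counts in Tip55+/+ and 3885 in Tip55Δ/Δ embryos (ratio 0.723, interval 0.706 to 0.741). Other annotated genes, mostly the overlapping Gm26631, hold 32.0% of the 50-base stretches of the Cox5a transcript, so its counts may include their reads. Cox7c went from 8444 to 6542 (ratio 0.775, interval 0.760 to 0.789) and Cox8a from 7726 to 6269 (ratio 0.811, interval 0.796 to 0.827). Cox5b, the zinc-binding subunit, had 6036 and 6090 (ratio 1.01), and Cox6b1, which faces cytochrome c, had 6136 and 6581 (ratio 1.07). Cox7c had the highest level per kb of the complex, 15637 normalized counts per kb in Tip55+/+ and 12115 in Tip55Δ/Δ embryos. Other annotated genes hold 53.0% of the 50-base stretches of its transcript. Of these, Gm10012 had means of 684 and 167 (ratio 0.244) and Gm12338 had 113 and 42.2 (ratio 0.374). With Gm10012 added, the ratio of Cox7c was 0.735 (interval 0.722 to 0.749). With Gm12338 added instead, it was 0.770 (interval 0.755 to 0.784), so Cox7c was lower with or without either copy. Ndufa4, once counted to complex I and now to complex IV, had 5050 and 5007 (ratio 0.992).

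The isoforms of complex IV from restricted tissues were scarce and differed in both directions. Cox4i2, the form associated with lung and with low oxygen, had 401 normalized counts in Tip55+/+ and 552 in Tip55Δ/Δ embryos (ratio 1.38, interval 1.28 to 1.48), while Cox4i1, its widespread counterpart, had 7030 and 5999 (ratio 0.853, interval 0.836 to 0.871). Per kb, Cox4i2 made up 5.53% of the Cox4 level in Tip55+/+ and 8.62% in Tip55Δ/Δ embryos. Cox6b2, best known from testis, went from 134 to 189 (ratio 1.41, interval 1.24 to 1.61), against a ratio of 1.07 for Cox6b1. Cox6a2, a form of heart and skeletal muscle, went from 55.1 to 35.3 (ratio 0.641, interval 0.499 to 0.825), against 0.873 for Cox6a1. Cox7a1, the other muscle form, had 51.9 and 53.2 (ratio 1.02, interval 0.817 to 1.29), which this depth cannot tell from no difference. Cox7a2 had 4270 and 4373 (ratio 1.02), and Cox7a2l, which links complexes III and IV into supercomplexes, had 5713 and 6430 (ratio 1.13). Cox8b, a further muscle form, and Cox7b2 had at most 3 summed counts per genotype and were not compared, and Cox8c was not analysed here. Neither muscle form was past 1.2-fold upward, while the summed level of the cardiac marker list had a ratio of 1.26.

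Complex V, the ATP synthase, had the most abundant transcripts, with a median log2 ratio of -0.14 over its 15 genes. Ratios below 1 were found for 12 of them (80%), against 50.3% of all genes compared and 57.7% of those with a mean of at least 1000. The complex had 5 lower genes (33.3%, against 19.1% of all genes compared) and none higher (against 19.9%). Among all genes with a mean of at least 1000, 16.3% were lower and 7.24% higher. The parts of the complex differed from each other. The catalytic head, where ATP is formed, is built from Atp5a1 and Atp5b. Atp5a1 had 36756 and 37249 normalized counts (ratio 1.01, interval 1.01 to 1.02) and Atp5b had 52409 and 47685 (ratio 0.910, interval 0.903 to 0.916). The central stalk turns inside this head. Atp5d, its delta subunit (chr10:80138632-80145818), went from 9726 to 6721 (ratio 0.691, interval 0.679 to 0.704), Atp5e, the epsilon subunit, from 1934 to 1533 (ratio 0.793, interval 0.762 to 0.824), and Atp5c1, the gamma subunit, had 10486 and 9460 (ratio 0.902, interval 0.888 to 0.917). The summed counts of the stalk had a ratio of 0.80, against 0.953 for the head. The peripheral stalk, which holds the head still, lay within 1.2-fold at all 4 genes, from Atp5h at a ratio of 0.901 to Atp5f1 at 1.04, with a summed ratio of 0.978. Of the small membrane subunits, Atp5j2 went from 5357 to 4239 (ratio 0.791, interval 0.773 to 0.810), and Atp5k and Atp5l had ratios of 0.918 and 0.938. Counts of the peripheral stalk genes and of Atp5l may include reads of other genes. Of the 50-base stretches of their transcripts, other annotated genes hold 50.5% for Atp5h, 38.7% for Atp5f1, 34.0% for Atp5o and 84.8% for Atp5l. The share was smaller for Atp5j, and Atp5d and Atp5e shared no stretch. The part of such reads in the difference between the stalks was not tested.

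The rotating c ring of ATP synthase is made from 3 genes that code for the same mature protein behind different import sequences. Atp5g1 (chr11:96068852-96075670 on GRCm38) had the lowest ratio of complex V, going from 7704 normalized counts in Tip55+/+ to 4994 in Tip55Δ/Δ embryos (ratio 0.648, interval 0.635 to 0.662). Atp5g3 went from 9785 to 7765 (ratio 0.794, interval 0.780 to 0.807), and Atp5g2 had 10219 and 9918 (ratio 0.971, interval 0.955 to 0.986). The genes summed to 27709 and 22677 normalized counts, a ratio of 0.818. Per kb, Atp5g1 supplied 23.2% of the c ring level in Tip55+/+ and 17.8% in Tip55Δ/Δ embryos, and Atp5g2 supplied 48.2% and 55.4%. The Atp5g2 value is uncertain, since every 50-base stretch of its transcript recurs in Gm10175 and Gm10231, and 52.2% of the stretches of Atp5g1 recur in Gm10039. Of the genes not counted as subunits, Atp5s went from 151 to 213 (ratio 1.40, interval 1.24 to 1.59), Ndufa4l2, a hypoxia-inducible paralogue of Ndufa4, went from 213 to 301 (ratio 1.41, interval 1.28 to 1.57), and Atp5sl had 1332 and 1561 (ratio 1.17).

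**Figure D3:**
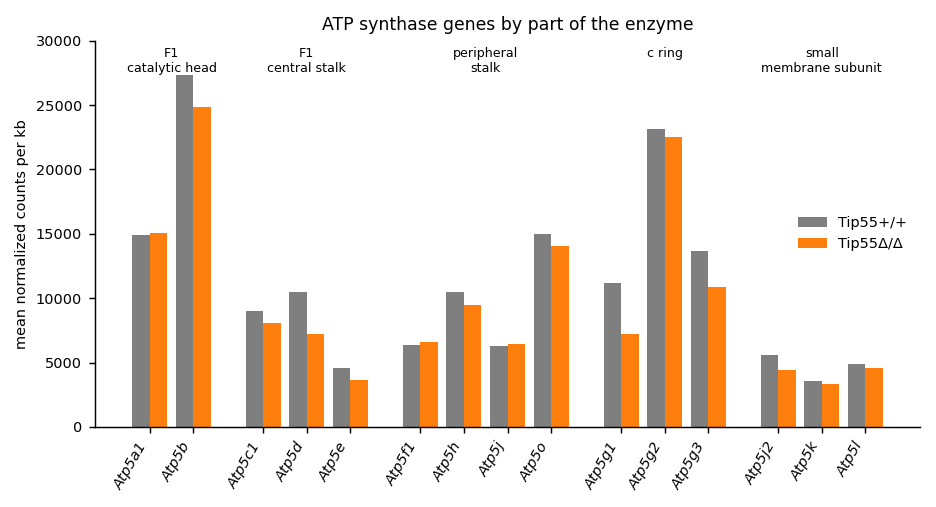
Mean normalized counts per kb of transcript (vertical) for the 15 ATP synthase genes, grouped by part of the enzyme, with grey bars for Tip55+/+ and orange bars for Tip55Δ/Δ embryos. Atp5b is the tallest at 27353 and 24888, and the widest relative gaps are at Atp5g1 and Atp5d.

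Levels per kb of transcript differed between the complexes. In Tip55+/+ embryos the medians were 2649 normalized counts per kb for complex I, 3225 for complex II, 6045 for complex III, 8881 for 12 genes of complex IV (the widespread forms and Cox7a2l) and 10447 for complex V, and the gene at the top was Atp5b. In Tip55Δ/Δ embryos the medians were 2498, 3195, 4874, 7546 and 7227 for complexes I to V, so the medians of complexes IV and V changed places. That change rests on single genes. The complex V median was the value of Atp5d in Tip55+/+ and of Atp5g1 in Tip55Δ/Δ embryos, the genes with the lowest ratios of the complex. The summed counts had a ratio of 0.911 for complex V and 0.928 for complex IV. In Tip55+/+ embryos the subunits of complex I ranged from 43.2 for Ndufs5 to 8327 for Ndufb8, and those of complex III from 2820 for Uqcrfs1 to 8518 for Uqcrh.

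The base composition of the transcripts went with the ratio over the whole table. For the 12486 genes whose mean reached 100 normalized counts, log2 ratio and GC content had a Spearman's rho of -0.39, and for the 91 respiratory genes it was -0.16, both given as descriptions across genes, which are not independent replicates. In the 10% of genes lowest in GC the median log2 ratio was 0.13, and in the highest 10% it was -0.24. When a smooth curve on GC content was subtracted, 13 of the 17 lower genes and all 8 higher ones stayed past 1.2-fold. Cyc1, Ndufs7, Uqcr10 and Cox8a no longer passed, with log2 ratios of -0.19, -0.13, -0.22 and -0.10 in place of -0.48, -0.37, -0.31 and -0.30. Ndufaf1 became lower, and Atp5sl and Atp5g2 became higher. Atp5g1 (-0.65), Cox5a (-0.56), Ndufab1 (-0.54) and Cox7c (-0.52) were then the lowest apart from Cox6a2 (-0.57).

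**Figure D4:**
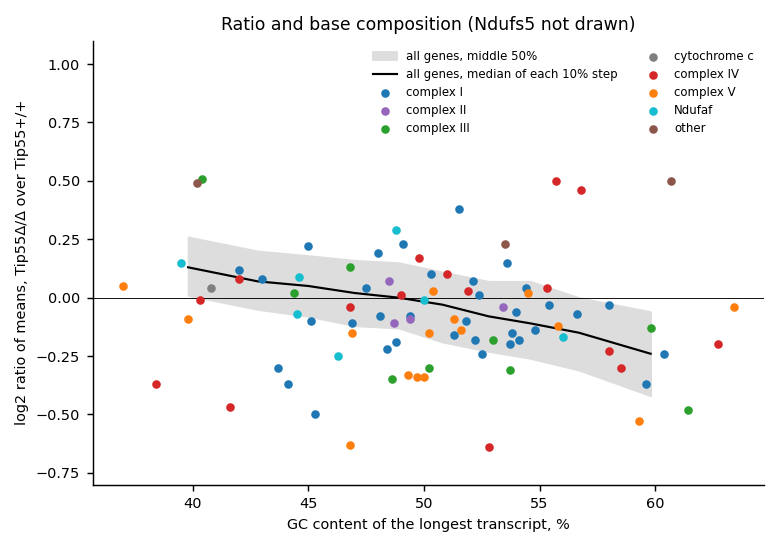
Log2 ratio of the Tip55Δ/Δ over the Tip55+/+ mean (vertical) against the GC percentage of the longest transcript (horizontal), with 1 coloured point per compared respiratory gene other than Ndufs5. The black line gives the median and the grey band the middle 50% of all genes in each 10% step of GC content, with the line falling from 0.13 in the lowest step to -0.24 in the highest.

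The promoters of these genes were searched for the letters of factors known to drive respiratory genes. RefSeq gives promoter entries on GRCm38.p6, from 250 bases before to 50 after a start, for 75 of the 93 genes by symbol, and 72 entries belong to 67 subunit genes. On either strand, GCGCATGC, the core recognised by NRF1, occurred in 10 of the 72 subunit promoters (13.9%), against 2.71% of all 32851 promoters and 4.65% of those of compared genes. CCGGAAG, read by ETS factors such as GABPA, occurred in 16 (22.2%), against 8.86% and 14.9%. AAGATGGCG, read by YY1, occurred in 7 (9.72%), against 1.40% and 2.44%. The GC box GGGCGGG occurred in 23 (31.9%), against 25.6% and 43.8%, and CCAAT in 30 (41.7%), against 37.4% of both. No motif searched lies within another. By the change of the gene, the NRF1 letters were in 0 of 15 promoters of lower subunit genes, 0 of 3 of higher ones and 10 of 52 of those within 1.2-fold. The ETS letters were in 2 of 15, 0 of 3 and 14 of 52, and the YY1 letters in 3 of 15, 0 of 3 and 4 of 52. The GC box was in 1 of 15, 1 of 3 and 20 of 52, and CCAAT in 7 of 15, 1 of 3 and 21 of 52. A match is a description of the sequence and not evidence of binding.

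Upstream flanks of 5 genes are shown to let the promoters of lower genes be read beside those of genes within 1.2-fold. Each is the longest stretch of the 250 bases before the start that lies in no annotated exon, in its gene's direction, with the NRF1 and ETS letters in capitals. Atp5l (chr9:44920752-44920992, minus strand) holds both kinds and Cox6a1 (chr5:115348982-115349129, minus strand) the NRF1 letters on both strands in 1 overlapping run, and both genes lay within 1.2-fold. The full promoter entry of Cox6a1 also holds the ETS letters, outside the stretch shown. Atp5l and Cox6a1 are not typical of genes within 1.2-fold, where 10 of 52 promoters held the NRF1 letters and 14 the ETS letters. Atp5e (chr2:174464106-174464351, minus strand) was lower and holds the ETS letters. Atp5g1 (chr11:96075671-96075881, minus strand) and Cox5a (chr9:57520982-57521231, plus strand) were lower and hold neither.
Atp5l: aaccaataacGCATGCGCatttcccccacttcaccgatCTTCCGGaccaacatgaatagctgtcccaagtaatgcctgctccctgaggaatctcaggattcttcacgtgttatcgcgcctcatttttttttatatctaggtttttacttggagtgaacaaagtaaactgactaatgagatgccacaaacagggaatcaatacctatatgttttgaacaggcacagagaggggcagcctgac
Cox6a1: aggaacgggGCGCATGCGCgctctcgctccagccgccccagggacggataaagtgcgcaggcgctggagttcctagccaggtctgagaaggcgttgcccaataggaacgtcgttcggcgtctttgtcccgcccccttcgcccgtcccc
Atp5e: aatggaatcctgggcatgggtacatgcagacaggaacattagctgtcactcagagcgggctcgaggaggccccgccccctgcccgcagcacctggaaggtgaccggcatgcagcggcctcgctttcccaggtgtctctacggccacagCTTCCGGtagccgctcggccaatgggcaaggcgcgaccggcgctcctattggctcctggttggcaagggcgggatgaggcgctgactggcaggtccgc
Atp5g1: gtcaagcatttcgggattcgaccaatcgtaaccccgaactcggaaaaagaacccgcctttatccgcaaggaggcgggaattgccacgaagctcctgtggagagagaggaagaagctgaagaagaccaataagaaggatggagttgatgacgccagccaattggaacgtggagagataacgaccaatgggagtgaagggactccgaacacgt
Cox5a: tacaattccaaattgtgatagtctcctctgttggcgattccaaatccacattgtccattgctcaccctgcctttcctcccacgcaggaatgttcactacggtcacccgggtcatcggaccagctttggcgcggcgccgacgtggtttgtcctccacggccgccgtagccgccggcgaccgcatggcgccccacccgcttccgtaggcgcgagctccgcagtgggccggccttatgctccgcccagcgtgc

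The regulators that read such letters were themselves within or just past 1.2-fold. Of 15 genes for regulators of mitochondrial biogenesis, 4 were lower (26.7%, against 19.1% of all genes compared) and 1 higher (6.67%, against 19.9%). Their median log2 ratio was -0.17. Nrf1 had means of 3117 and 2951 normalized counts (ratio 0.947) and Gabpa had 4586 and 5290 (ratio 1.15), the latter in a locus that overlaps Atp5j. Yy1 went from 5276 to 4258 (ratio 0.807, interval 0.788 to 0.826). Esrra, the oestrogen-related receptor that works with PGC-1 coactivators on respiratory genes, was the lowest, going from 760 to 475 (ratio 0.626, interval 0.585 to 0.669), and Ppargc1a and Ppargc1b, the coactivators, had ratios of 0.788 and 0.809 at means of 119 to 162 normalized counts. Myc was the higher gene, at 4648 and 5723 (ratio 1.23). Tfam, which packs and transcribes mitochondrial DNA, had 3882 and 4114 (ratio 1.06).

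Genes of neighbouring processes were counted in the same way, beside shares of 19.1% lower and 19.9% higher among all genes compared. Of 7 ADP/ATP carriers, phosphate carriers, porins and the ATP synthase inhibitor, 2 were lower and none higher, with a median log2 ratio of -0.23. Atpif1, the inhibitor, went from 6148 to 4742 (ratio 0.771) and Slc25a3, the phosphate carrier, from 17230 to 14024 (ratio 0.814), while Vdac2, a porin, stood highest at 11552 and 11596. Of 14 tricarboxylic acid cycle genes only Mdh2 was lower (13597 and 10746, ratio 0.790), with Sucla2 highest at 1.18, and of 10 genes of pyruvate entry only Mpc2 (534 and 360, ratio 0.675), with Pdhx highest at 1.13. Of 17 import genes Tomm40 was lower (7384 and 5947, ratio 0.805) and Tomm70a was the highest (ratio 1.13). Of the 31 assembly factors of complexes II to V compared, 4 were lower and 1 was higher, with Cox19 at the low end (892 and 657, ratio 0.737) and Pet100 at the high end (453 and 570, ratio 1.26). Of 18 glycolysis genes 3 were lower and 3 higher, with a median log2 ratio of -0.09. The lower ones were Slc16a3, a lactate exporter (15216 and 11942, ratio 0.785), Aldoa (ratio 0.790) and Hk1 (ratio 0.831), and the higher ones were Slc2a1, the glucose transporter (59882 and 87751, ratio 1.47), Hk2 (ratio 1.29) and Aldoc (ratio 1.22). The 13 subunits made from mitochondrial DNA were not analysed here.

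Other large complexes gave a scale for the shares. Of 83 cytosolic ribosomal protein genes 26 were lower (31.3%) and none higher, with a median log2 ratio of -0.19, from Fau at a ratio of 0.670 to Rpl37 at 1.09. Of 77 mitochondrial ribosomal protein genes 13 were lower (16.9%) and 3 higher, with a median of -0.01, from Mrpl34 at 0.606 to Mrpl1 at 1.28. Of 37 proteasome genes 3 were lower (8.11%) and 4 higher, with a median of 0.02, from Psmb10 at 0.631 to Psmb2 at 1.26 among genes whose mean reached 100 normalized counts. The 80 compared subunits of complexes I to V had 17 lower genes (21.2%), 5 higher and a median of -0.09. Their share of lower genes and their median lay between those of the ribosomal groups. The share of higher subunit genes (6.25%) was above both but under the 19.9% of all genes compared. Of the higher subunit genes, Ndufs5, Cox4i2 and Cox6b2 had means under 1000. At a mean of at least 1000, 2.70% of 74 subunit genes were higher, against 7.24% of all genes.

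**Figure D5:**
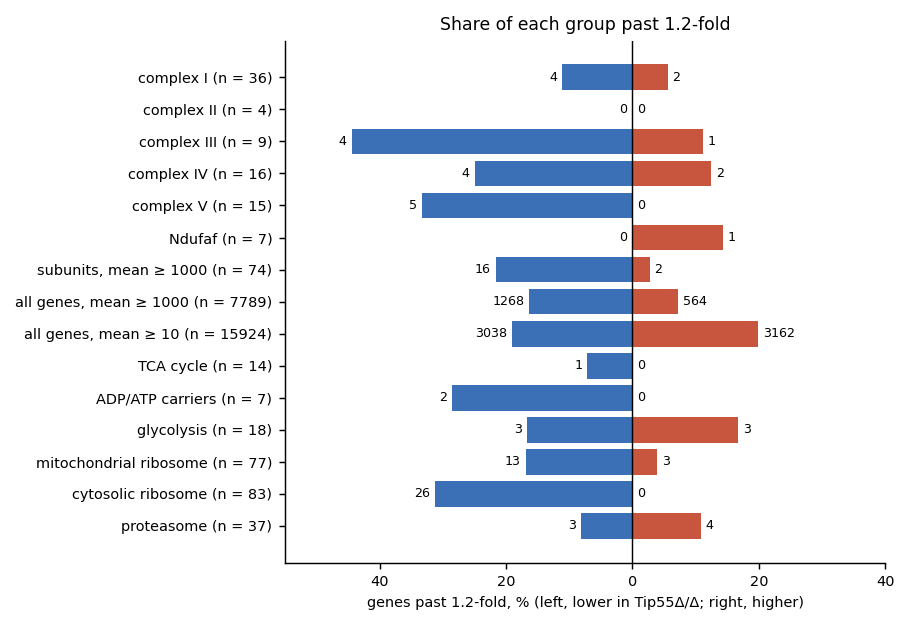
Percentage of genes past 1.2-fold (horizontal, lower in Tip55Δ/Δ to the left and higher to the right) for each complex, for all genes and for gene groups of other processes, with the number of genes at the end of each bar. Complex V, the TCA (tricarboxylic acid) cycle, the carriers and the cytosolic ribosome have bars to the left only, and complex II has none.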

How the data were processed

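RNA from E8.5 embryos, 3 libraries per genotype, was enriched for mRNA and sequenced in the BGI-seq format, and the authors used RSEM on mm10 alignments for quantification and EBSeq for the comparison. The deposited table gives, per gene, linear fold ratios of normalized means (Tip55Δ/Δ over Tip55+/+, a direction read from the table's name and from erythroid genes that the study describes as lower) and posterior probabilities of equal and differential expression, which were not used. One ratio adds 0.01 to both means and the posterior ratio adds 0.5141, so both means were solved for each gene, and 8 genes with a rounding error over 5% were left out of the totals. Recovery was tested on simulated data. A gene needed a mean of 10 normalized counts in either genotype. A mean of 1, or 3 counts summed over a genotype, was the floor. Coordinates, transcript lengths and GC content came from GENCODE vM21 on GRCm38 (equal to mm10), and 50-base stretches were compared between transcripts, with levels per kb from the principal coding transcript of middle length. The paper does not say whether the libraries are strand specific, so reads from stretches that overlapping genes share may not be told apart. GC curves were lowess fits (span 0.3, statsmodels 0.14.6, Python 3.11.15). The respiratory genes named were every reported one past 1.2-fold, the complex II, cytochrome and isoform genes, and the lowest, highest and most abundant (per kb) of each group. For the other lists the lowest and highest genes with a mean of 100 were named, and further genes, chosen after their values were seen, are given for contrast. Members and lists were chosen with earlier results of these data known. Alternatives changed the fold, pseudocount, filter, scaling, GC and length trends and the genes that overlap or share sequence. The values of 1 complex I gene are not reported here singly.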

Additional observations from a re-analysis of the deposited data

How the results depend on the processing

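Of 94 values recomputed under alternatives for the counts of lower and higher genes and the group medians, 63 stayed within the range set for them, 31 moved and 0 changed sign past the threshold. With 1.1-fold in place of 1.2-fold there were 34 lower and 15 higher genes, and with 1.5-fold 2 and 1. Scaling both genotypes to equal totals shifted every log2 ratio by 0.06, which left 13 lower and 11 higher genes, and the medians became -0.03 for the subunits together, -0.02 for complex I, -0.01 for complex II, -0.12 for complex III, 0.06 for complex IV, -0.08 for complex V and 0.04 for the Ndufaf genes, so the small negative median of the Ndufaf genes changed sign. Removing the GC trend gave -0.05 for the subunits together, -0.02 for complex I, -0.02 for complex II and -0.10 for complex III. Removing the length trend left 13 lower and 10 higher genes and gave -0.03 for the subunits together, -0.02 for complex I, -0.00 for complex II, 0.07 for complex IV, -0.08 for complex V and 0.05 for the Ndufaf genes. With both trends removed, complex I stood at -0.02 and complex III at -0.12. Leaving out the 40 genes that overlap another gene left 11 lower and 5 higher genes, with medians of -0.31 for complex III and -0.33 for complex V. Leaving out the 36 genes that share sequence with other genes, an alternative chosen after seeing the data, left 11 lower and 5 higher, with medians of -0.31 for complex III and -0.24 for complex V. In both cases fewer genes were counted, and for the other moves the cause was not tested. No paired analysis was possible because the deposited table holds 1 mean ratio per gene and no library values, and for the same reason no library could be left out. Depth did not limit most ratios, whose median interval half-width was 0.04 on the log2 scale, but the spread between embryos is unknown.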
